A study of Mus musculus with 4 samples.

Results

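The voltage-gated and potassium channel genes of the mouse were followed through the gene lists of a single-cell RNA sequencing series on fetal pancreas. Members were chosen by symbol alone: the Kcn genes that end in a number, the Scn genes of sodium channels, the Cacn genes of calcium channels, the Hcn genes and the Clcn genes. The annotation holds 145 such genes, each protein-coding, and 139 of them were in at least 1 of the 3 complete lists, which together hold 29652 genes. Each list says which genes were listed for a library and gives no count or level, so a listed gene may have had any level, and a gene that is not listed may have been missed at a depth that is unknown. From such lists, fewer cells of a type and less RNA per cell cannot be told apart.

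Cells were dissociated from fetal pancreas, labelled for EpCAM, an epithelial surface protein, and purified by flow cytometry. All embryos were on a C57BL/6 background and carried Setd2 f/f, in which the gene for Setd2, the enzyme that trimethylates lysine 36 of histone H3, can be cut out by Cre recombinase. The KO groups carried Pdxcre with Setd2 f/f, and the WT groups carried Setd2 f/f and are labelled WT. The Pdx promoter drives Cre in the pancreatic epithelium, so cells of other lineages in the sort keep the gene by this design. There was 1 library for each of E15.5 KO, E15.5 WT, E13.5 KO and E13.5 WT, the number of embryos behind each is not given in the sources used here, and there was no replicate check and no test. The lists held 25474 genes in E15.5 KO, 26341 in E13.5 KO and 25463 in E13.5 WT. The E15.5 WT list breaks off after 167 complete lines, a stretch that covers 3 of the 145 channel genes. Setd2 was itself listed in E15.5 KO, E13.5 KO and E13.5 WT, and a listing does not separate the deleted part from the rest, so the genotype labels were not checked by it. The 10 markers of pancreatic epithelium that were looked up, among them Epcam, Cdh1 and Pdx1, were in every complete list. Markers of other cells were there too. Of 12 markers of neurons and glia the lists held 9 in E15.5 KO, 12 in E13.5 KO and 12 in E13.5 WT. Of 12 muscle markers they held 9, 11 and 11 in that order, and of 6 endothelial markers 4, 6 and 6. In E15.5 KO these shares were 75%, 75% and 66.7%, near or below the 75.9% of annotated protein-coding genes listed there. In E13.5 KO and E13.5 WT that background was 77.9% and 77.7%.

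Ion channels set the electrical state of a cell. In the beta cell, potassium channels closed by ATP hold the membrane at rest until glucose is metabolised, after which voltage-gated sodium and calcium channels fire, calcium enters and insulin granules are released, and voltage-gated and calcium-activated potassium channels end the spike. Neurons, skeletal muscle and heart use other members of the same families, and transporting epithelia use a further set together with ClC chloride channels. Pore-forming subunits make the conducting path, while auxiliary subunits alter gating or carry the pore to the membrane.

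A larger share of the channel genes was listed than of protein-coding genes at large. Of the 145, the E15.5 KO list held 123 (84.8%), the E13.5 KO list 130 (89.7%) and the E13.5 WT list 134 (92.4%). Among all 22028 annotated protein-coding genes the same shares were 75.9%, 77.9% and 77.7%. The channel genes were also longer, with a median span of 40.5 kb against 17.3 kb, and the part of length in these shares was not tested. All 3 complete lists held 119 channel genes (82.1%), against 72.8% of annotated protein-coding genes. A further 20 were in 1 or 2 of the lists and 6 were in none. Of the 139 channel genes in any complete list, 85.6% were in all 3, against 89.4% of the protein-coding genes and 74.9% of all genes in any complete list.

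**Figure D1:**
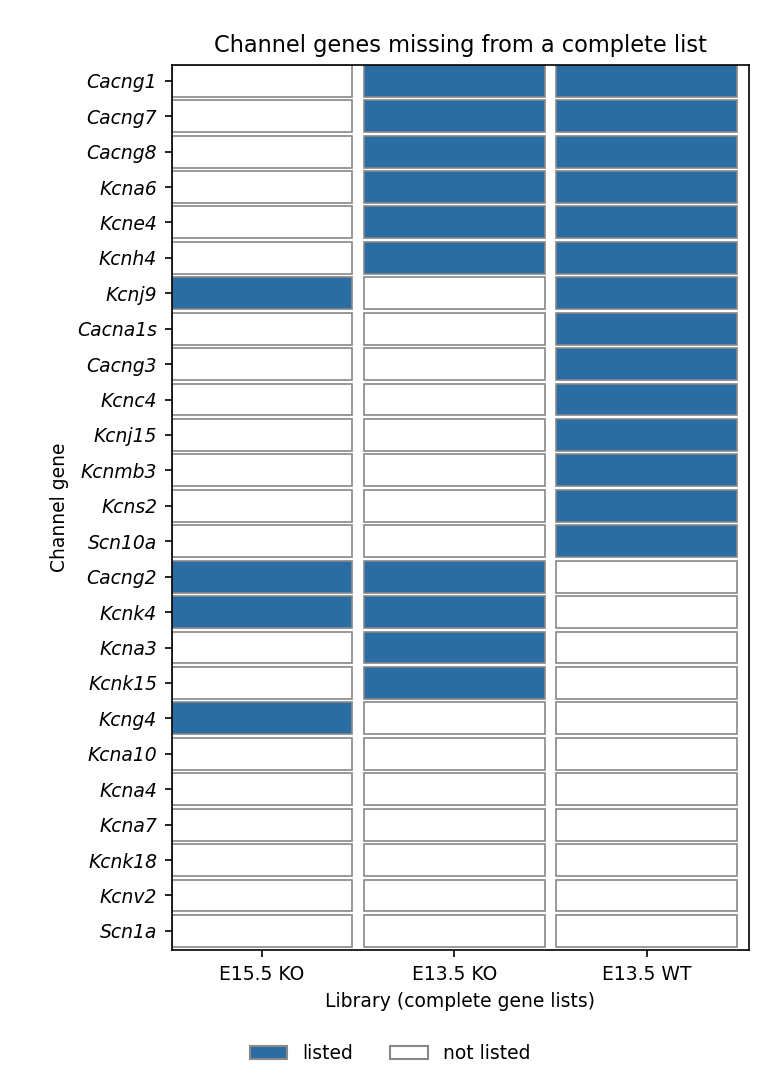
Listing of channel genes that at least 1 complete list lacks, 25 of 26 such genes, with 1 row per gene and columns for E15.5 KO, E13.5 KO and E13.5 WT; a blue tile marks a listed gene and a white tile a gene not listed. The 6 rows that are white throughout are the genes in no list, 7 genes are in E13.5 WT alone, and the 6 topmost are in both E13.5 lists and not in E15.5 KO.

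Among the genes absent from E15.5 KO and present in both E13.5 lists were Cacng1, Cacng7, Cacng8, Kcna6, Kcne4 and Kcnh4. Because these 6 had the same listing, the promoters of those with an entry in the RefSeq promoter table on GRCm38.p6 are shown, from 250 bases before to 50 after the start site, with each CpG dinucleotide in capitals and read 5′ to 3′ on the gene's strand. Cacng1 had no entry, and the start site of the Cacng8 window lies 3359 bases inside the annotated gene, so it is not shown. The start sites of the windows shown lie 0 to 467 bases from the annotated 5′ ends. Cacng6 is added because it lies beside Cacng7 and Cacng8 and was in every complete list, a choice made after its listing was known. The windows are chr7:3332575-3332874 on the plus strand for Cacng7, chr7:3424412-3424711 plus for Cacng6, chr6:126740625-126740924 minus for Kcna6, chr1:78816661-78816960 plus for Kcne4 and chr11:100759729-100760028 minus for Kcnh4.
Cacng7: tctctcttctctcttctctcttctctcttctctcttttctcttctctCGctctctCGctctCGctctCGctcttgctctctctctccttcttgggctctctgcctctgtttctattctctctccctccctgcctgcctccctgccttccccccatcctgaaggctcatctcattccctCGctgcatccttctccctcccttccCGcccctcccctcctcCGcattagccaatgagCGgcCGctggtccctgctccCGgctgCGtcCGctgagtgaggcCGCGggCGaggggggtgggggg
Cacng6: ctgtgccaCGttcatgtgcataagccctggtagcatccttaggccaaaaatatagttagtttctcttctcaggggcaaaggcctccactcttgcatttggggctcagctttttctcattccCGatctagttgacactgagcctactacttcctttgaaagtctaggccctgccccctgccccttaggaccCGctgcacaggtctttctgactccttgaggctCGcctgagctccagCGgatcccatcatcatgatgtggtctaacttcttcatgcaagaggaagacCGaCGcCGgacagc
Kcna6: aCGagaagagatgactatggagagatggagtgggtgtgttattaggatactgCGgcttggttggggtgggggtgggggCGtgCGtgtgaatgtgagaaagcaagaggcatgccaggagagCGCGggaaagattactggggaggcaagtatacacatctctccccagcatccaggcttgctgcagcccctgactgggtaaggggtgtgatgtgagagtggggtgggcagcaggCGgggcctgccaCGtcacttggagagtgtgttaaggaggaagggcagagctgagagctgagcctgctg
Kcne4: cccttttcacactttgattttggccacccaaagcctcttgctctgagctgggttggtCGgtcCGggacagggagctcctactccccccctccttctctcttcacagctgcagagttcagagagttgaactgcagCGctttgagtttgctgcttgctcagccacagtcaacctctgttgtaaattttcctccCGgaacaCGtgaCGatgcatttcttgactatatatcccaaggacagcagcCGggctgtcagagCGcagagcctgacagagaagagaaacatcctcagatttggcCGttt
Kcnh4: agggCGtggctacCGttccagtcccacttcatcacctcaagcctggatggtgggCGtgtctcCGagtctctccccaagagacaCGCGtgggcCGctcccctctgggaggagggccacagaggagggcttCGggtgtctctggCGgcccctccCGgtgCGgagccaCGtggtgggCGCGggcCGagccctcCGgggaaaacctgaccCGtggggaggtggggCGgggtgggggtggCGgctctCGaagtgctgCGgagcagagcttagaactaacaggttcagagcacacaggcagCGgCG

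The CpG content of the windows shown varied. The window of Kcnh4 held 23 CpG dinucleotides, with an observed to expected ratio of 0.66, and that of Cacng7 held 15 with a ratio of 0.62. Kcne4 had 9 (0.44) and Kcna6 8 (0.38). Cacng6, listed throughout, had 8 (0.40), inside that range. For scale, the median ratio over 16538 promoters of protein-coding genes was 0.60, and 95.1% of them held at least 1 CpG. A comparison of promoter content between listed and unlisted channel genes was void, because only 106 of the 145 (73.1%) had an entry in the promoter table, fewer than 80%.

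Nearly all channel genes on a list drawn up for the beta cell were listed. Genes on it are not confined to that cell, and Cacna2d1 is also part of the skeletal muscle complex described below. Of the 20 genes on that list, 19 were in E15.5 KO (95%, against 84.8% of all channel genes). The E13.5 KO and E13.5 WT lists held 20 each (100%, against 89.7% and 92.4%). All 13 channel genes of heart and smooth muscle were in the 3 lists too, so a high share was not particular to the beta-cell group. Kcnj11 (ENSMUSG00000096146, chromosome 7, 46093953 to 46100764, mm10/GRCm38), the pore of the ATP-sensitive potassium channel, was in all 3 lists, and so was its sulfonylurea receptor subunit Abcc8, which lies next to it from 46104523 to 46180033. Kcnk16 (chromosome 14, 20261376 to 20269199), the TALK-1 background channel of islets, was listed in each. Other potassium channel genes of the group were also in all 3 lists: Kcnk3 of the TASK-1 background channel, Kcnma1 of the large-conductance BK channel with its auxiliary gene Kcnmb4, Kcnn3 of the SK3 channel, Kcnh6 of the Erg type, and Kcnip3, a calcium-binding partner of Kv4 channels.

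Calcium entry genes of the beta-cell group did not differ between the lists. Cacna1c (chromosome 6, 118587240 to 119196418) and Cacna1d (chromosome 14, 30039939 to 30491455), the L-type pores Cav1.2 and Cav1.3, were in all 3, as were Cacna1a of the P/Q type and Cacna1e of the R type. Their auxiliary genes Cacnb2, Cacnb3 and Cacna2d1 and the granule chloride-proton exchanger gene Clcn3 were listed with them. Of the sodium channel genes of the group, the pores Scn3a (Nav1.3) and Scn9a (Nav1.7), the main sodium channels of mouse islet cells, were in all 3. Beyond the channels, 14 of 14 genes of glucose sensing and insulin release, such as Slc2a2, G6pc2 and Snap25, were in each of the 3 lists. Of annotated protein-coding genes, 72.8% were in all 3.

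**Figure D2:**
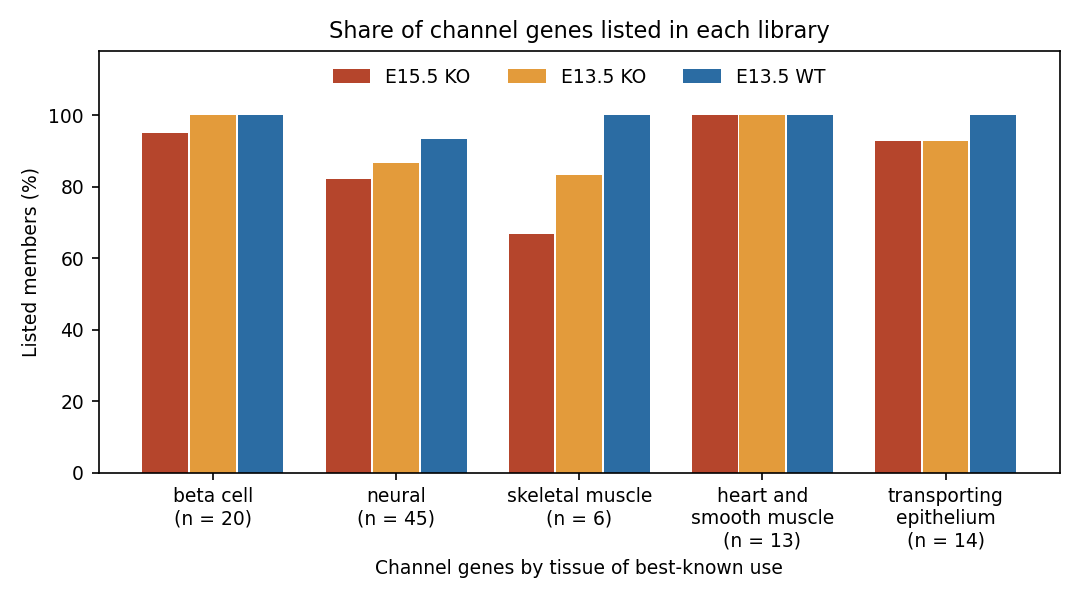
Share of listed genes (% of the group, vertical axis from 0) for 5 groups of channel genes named for the tissue they are best known in, with bars for E15.5 KO, E13.5 KO and E13.5 WT from left to right. Beta-cell channels reach 95%, 100% and 100%, neural ones 82.2%, 86.7% and 93.3%, and the 6 skeletal muscle genes 66.7%, 83.3% and 100%.

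Most neural channel genes were also on the lists of these EpCAM-sorted cells. Of 45, the lists held 37 in E15.5 KO, 39 in E13.5 KO and 42 in E13.5 WT, and 35 were in all 3 (77.8%, against 82.1% of all channel genes). The 35 include the pores of neuronal sodium channels Scn2a and Scn8a, the M-current gene Kcnq3, the N-type calcium channel gene Cacna1b and the pacemaker gene Hcn2. In no complete list were Scn1a (chromosome 2, 66270778 to 66440840), the Nav1.1 pore of inhibitory interneurons, and Kcna4 (chromosome 2, 107290639 to 107298502), which encodes the inactivating channel Kv1.4. The remaining 8 differed between lists, and 4 of them are Cacng genes. Of 12 markers of neurons and glia, 9 were in all 3 lists, Tubb3 and Elavl3 among them, as were 72.8% of annotated protein-coding genes. Foxd3, a transcription factor of the neural crest, and Dbh, an enzyme of sympathetic neurons, were listed in both E13.5 lists and not in E15.5 KO. Of protein-coding genes in either KO list, 5.03% were in the E13.5 one only. Dbh was also listed in E15.5 WT, where Foxd3 is not covered. Of the 172 genes in either E15.5 list over the covered stretch, 1.74% were in WT only. The part of neural cells in the listing of neural channels was not tested.

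Most muscle channel genes were listed. The 13 genes of heart and smooth muscle were in all 3 lists, among them Kcnh2 (the Erg channel of cardiac repolarisation), Kcne1, Hcn4 and Kcnmb1. Of 6 skeletal muscle genes, E15.5 KO held 4, E13.5 KO 5 and E13.5 WT 6, and 66.7% were in all 3 lists, against 82.1% of all channel genes. With 6 genes this gap rests on single genes. Cacna1s (ENSMUSG00000026407, chromosome 1, 136052750 to 136119822), the Cav1.1 voltage sensor of skeletal muscle, was listed in E13.5 WT alone. Cacng1 (ENSMUSG00000020722, chromosome 11, 107703218 to 107716522), its gamma1 subunit, was listed in E13.5 KO and E13.5 WT. The other parts of that complex, Cacna2d1, Cacnb1 and the adaptor Stac3, were in every list, so that of its 5 genes E15.5 KO held 3, E13.5 KO 4 and E13.5 WT 5. Of 12 muscle markers, 9 were in all 3 lists, Ryr1 and Myh3 among them, as were 72.8% of annotated protein-coding genes. The muscle determination factors Myod1 and Myog were listed in both E13.5 lists and not in E15.5 KO. Of protein-coding genes in either KO list, 5.03% were in the E13.5 one only. Another muscle determination factor, Myf5, was in none of the complete lists and was listed in E15.5 WT. Over the stretch covered there, 1.74% of the 172 genes in either E15.5 list were in WT only. The part of these factors in the listing of muscle channels was not tested. Of the 14 genes of transporting epithelia, such as Kcnq1, Kcne2 and Clcn2, 13 were in all 3 lists.

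At E13.5 the comparison of KO with WT asks which channel genes 1 genotype's list held and the other's did not. Of 138 channel genes in either list, 4 were in KO only (2.9%) and 8 in WT only (5.8%), and 126 (91.3%) were in both. Over all protein-coding genes 3.17% were in KO only and 2.91% in WT only, 6.08% together, against 8.7% of the channel genes. Over all genes the shares were 9.72% and 6.61%, 16.3% together. The KO-only share of channel genes is near the protein-coding background, and the WT-only share stands on 8 genes in 1 pair of libraries.

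The 4 in KO only were Cacng2, Kcnk4, Kcna3 and Kcnk15, none of them on the beta-cell list. Cacng2 (chromosome 15, 77991748 to 78120028) encodes stargazin, which brings AMPA-type glutamate receptors to the synapse, and Kcnk4 (chromosome 19, 6923966 to 6934515) the mechanically gated channel TRAAK. Both were listed in E15.5 KO as well. Kcna3 (chromosome 3, 107036169 to 107038070), the Kv1.3 channel of lymphocytes, and Kcnk15 (chromosome 2, 163853651 to 163859746), the TASK-5 gene, were in E13.5 KO alone. Exons of Kcnk4 overlap those of Catsperz on the same strand, and exons of Cacng2 overlap A730060N03Rik on the opposite strand, so reads of these pairs may not be separable.

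The 8 in WT only span 4 neural genes, 1 skeletal muscle gene, 1 of transporting epithelium and 2 outside the lists. Kcnj9 (chromosome 1, 172320501 to 172329318), the GIRK3 subunit of channels opened by G proteins, was also in E15.5 KO, and its partners Kcnj3, Kcnj5 and Kcnj6 were in every list. The other 7 were in E13.5 WT alone. They were Cacna1s, Cacng3 (chromosome 7, 122670492 to 122769393), an AMPA receptor partner like Cacng2, Scn10a (chromosome 9, 119608456 to 119719322), the Nav1.8 pore of nociceptive neurons, Kcns2 (chromosome 15, 34837355 to 34843407), a silent subunit, Kcnc4 (chromosome 3, 107438303 to 107459552), the Kv3.4 pore, Kcnmb3 (chromosome 3, 32471588 to 32492231), an auxiliary BK subunit, and Kcnj15 (chromosome 16, 95257558 to 95300260), the Kir4.2 channel of epithelia. Cacna1s, Kcnj9 and Kcnj15 have exons that overlap predicted genes on the opposite strand.

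**Figure D3:**
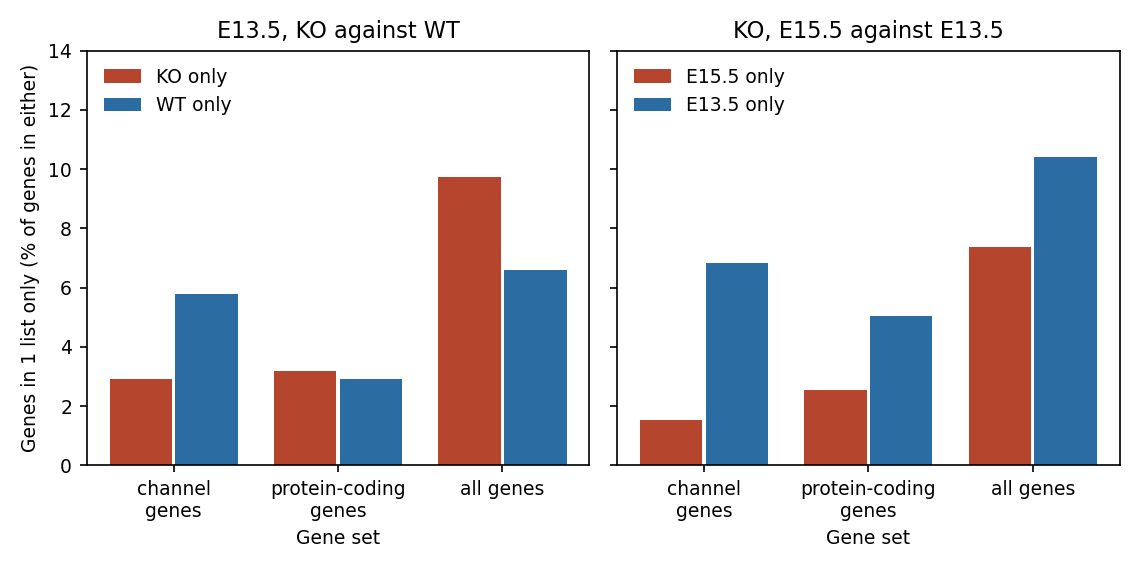
Genes listed in 1 library only as a percentage of the genes in either, for channel genes, all protein-coding genes and all genes; the left panel sets E13.5 KO (red) against E13.5 WT (blue) and the right panel E15.5 KO (red) against E13.5 KO (blue). Channel genes stand at 2.9% and 5.8% in the left panel and at 1.52% and 6.82% in the right one, against 3.17% and 2.91%, and 2.55% and 5.03%, of protein-coding genes.

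In the KO, E15.5 was set against E13.5 to see which channel genes were listed at 1 age. Of 132 channel genes in either list, 2 were in the E15.5 one and not the E13.5 one (1.52%), and 9 the other way round (6.82%). For protein-coding genes the shares were 2.55% and 5.03%, 7.57% together, against 8.33% of the channel genes, and for all genes 7.37% and 10.4%, 17.8% together. The channel genes therefore lay close to the protein-coding background in both directions. Age and library coincide in this comparison and cannot be told apart.

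Auxiliary subunits made up 5 of the 9 channel genes listed in KO at E13.5 only, although they are 35 of the 145 channel genes. Among them were Cacng1, Cacng7 (chromosome 7, 3332955 to 3368221), Cacng8 (chromosome 7, 3390683 to 3415648) and Kcne4 (chromosome 1, 78816758 to 78820028), which inhibits Kv channels such as that of Kcnq1. Cacng7 and Cacng8 encode AMPA receptor partners and are neighbours on chromosome 7. The share of auxiliary genes among these 9 rests on single genes in 1 pair of libraries and was not tested. The 4 pores were Kcna6 (chromosome 6, 126708329 to 126740674) of the Kv1.6 channel, Kcnh4 (chromosome 11, 100740376 to 100759942) of the Elk type, Kcna3 and Kcnk15. The first 2 of these pores and the 5 auxiliary genes were in E13.5 WT too, while Kcna3 and Kcnk15 were not. Listed in KO at E15.5 only were Kcnj9, which E13.5 WT also held, and Kcng4 (chromosome 8, 119623854 to 119635680), a silent subunit that no E13.5 list held. Among the auxiliary genes as a whole, 28 of 35 were in E15.5 KO, 33 in E13.5 KO and 34 in E13.5 WT, and among the 110 pores 95, 97 and 100 in that order. Exons of Kcna6 and Cacng8 overlap other annotated genes, Gm26673 on the opposite strand and Gm23450 on the same strand.

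At E15.5, the KO and WT lists could be compared over 3 channel genes. Kcnn3 (ENSMUSG00000000794, chromosome 3, 89520164 to 89675132) and Clcn4 (ENSMUSG00000000605, chromosome 7, 7282309 to 7300851), an endosomal chloride-proton exchanger, were listed in both. Scn4a (ENSMUSG00000001027, chromosome 11, 106318592 to 106353288), the Nav1.4 pore of skeletal muscle, was listed in E15.5 KO and not in E15.5 WT, and both E13.5 lists held it. Over the same stretch 2.91% of the 172 genes in either list were in KO only and 1.74% in WT only. Kcnn3 is thus the 1 beta-cell channel with a listing in all 4 libraries, and the other 19 were not covered in E15.5 WT.

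**Figure D4:**
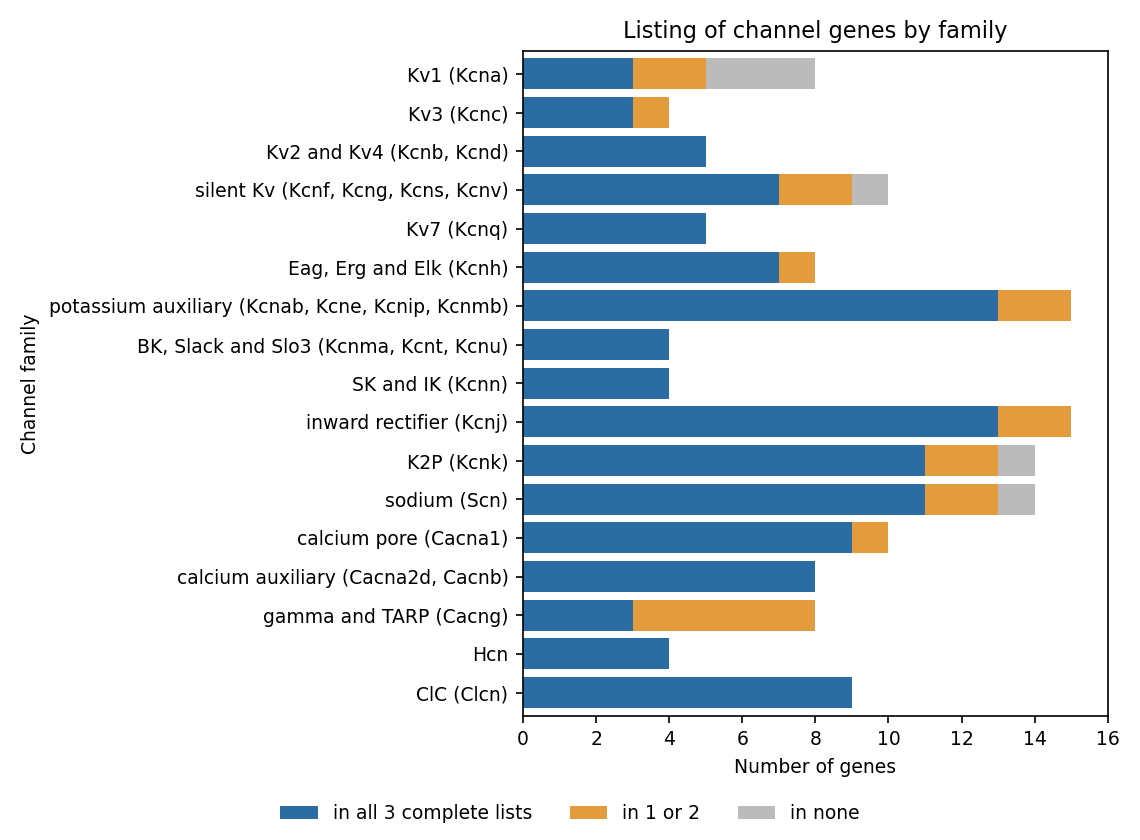
Number of channel genes per family (horizontal axis) in all 3 complete lists (blue), in 1 or 2 (orange) and in none (grey). The Kv1 and Cacng families have 3 of 8 genes in all lists each, while the bars of the Kv7, Hcn and ClC families are blue throughout.

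By family, listing was uneven. The 5 Kv2 and Kv4 genes, the 5 Kv7, the 4 SK and IK, the 4 of the BK, Slack and Slo3 group, the 8 calcium channel alpha2delta and beta subunit genes, the 4 Hcn and the 9 ClC genes were in all 3 lists. The families with the smallest share in all lists were Kv1 and Cacng, each with 3 of 8 (37.5%, against 82.1% of all channel genes). Of the Kv1 genes, Kcna1, Kcna2 and Kcna5 were in every list, Kcna6 and Kcna3 in some, and Kcna4, Kcna7 and Kcna10 in none. Of the Cacng genes, Cacng4, Cacng5 and Cacng6 were in every list. E15.5 KO held 4 of the 8 Cacng genes, E13.5 KO 7 and E13.5 WT 7. The 6 Cacng genes that encode AMPA receptor partners were listed 3 times in E15.5 KO, 5 times in E13.5 KO and 5 times in E13.5 WT.

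Silent Kv subunits, which conduct only when joined to other Kv pores, numbered 10, of which 7 were in all 3 lists, Kcng4 and Kcns2 in 1 each, and Kcnv2 (chromosome 19, 27322588 to 27337179), the Kv8.2 subunit of photoreceptors, in none. Besides Kcnv2, Scn1a and Kcna4, the genes in no list were Kcna7 (chromosome 7, 45405653 to 45409763), Kcna10 (chromosome 3, 107183056 to 107195721), the Kv1.8 gene of vestibular hair cells, and Kcnk18 (chromosome 19, 59219214 to 59237374), the TRESK channel of sensory neurons. These 6 are 4.14% of the channel genes, against 18.5% of protein-coding genes in none of the complete lists. The part of gene length in this gap was not tested.

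A further 28 genes outside the 145 were looked up. They were partners of channels or, such as Cftr, Nalcn and Trpm5, channels of other families. E15.5 KO held 27 of the 28 (96.4%, against 84.8% of the 145 channel genes). E13.5 KO held 26 (92.9%, against 89.7%) and E13.5 WT 25 (89.3%, against 92.4%). The 3 that differed were Lrrc26 (chromosome 2, 25289915 to 25291180), an auxiliary BK subunit of secretory epithelia, in E15.5 KO alone, Lrrc52 (chromosome 1, 167445669 to 167466780), a partner of the sperm channel Kcnu1, in E13.5 KO alone, and Bsnd (chromosome 4, 106483456 to 106492283), in E15.5 KO alone. Bsnd encodes barttin, an auxiliary subunit of chloride channels in the kidney and inner ear. For the BK channel, Kcnma1, Kcnmb1, Kcnmb2 and Kcnmb4 were in every list, while Kcnmb3, Lrrc26 and Lrrc52 were each in a single one, and in a different one. Both ATP-sensitive channels, Kcnj11 with Abcc8 and the vascular Kcnj8 with Abcc9, were complete in all 3 lists. These complexes were put together after the listing was known.

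**Figure D5:**
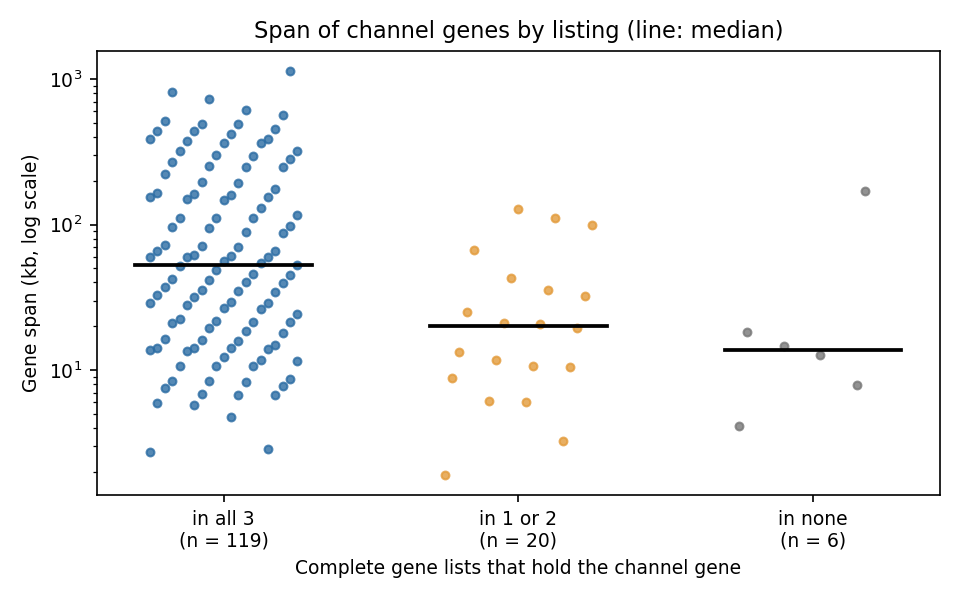
Genomic span of each channel gene in kb (vertical log axis), by the number of complete lists that hold it; points are genes and the black line is the median. The medians are 52.5 kb for the 119 genes in all 3 lists, 20.1 kb for the 20 in 1 or 2 and 13.6 kb for the 6 in none, with wide overlap.

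Genes in all 3 lists spanned more of the genome. Their median span was 52.5 kb (2.74 to 1135 kb, n = 119), against 20.1 kb (1.9 to 128.3 kb, n = 20) for those in 1 or 2 lists and 13.6 kb (4.11 to 170.1 kb, n = 6) for those in none. The ranges overlapped, and Scn1a, at 170 kb, was among those in none. Protein-coding genes as a whole had the same order, with medians of 23.6, 10.8 and 5.86 kb, so the order is not particular to channels. The Kv1 genes, most of which have their coding part in a single exon, had the shortest median span of any family (6.93 kb), and the 20 beta-cell genes a median of 102 kb. Neural genes had a median span of 111 kb and the lower share in all 3 lists, 77.8% against 95%. Their exons held a median of 6895 bases, against 11453 for the beta-cell genes. The part of gene length in these shares was not tested, and both lists were chosen with earlier results of these data known.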

How the data were processed

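Per the labels' protocols, EpCAM-labelled cells were purified by flow cytometry and sequenced as paired-end reads. Seurat and the build mm10 are named in the submitters' processing notes. Neither the aligner, the annotation release, the filters nor what qualified a gene for listing is given in the sources used here. Each deposited file has no header and 2 columns, a gene identifier and a symbol, so the deposited files used here hold no count, percent or other measured value, and the depth is unknown. A list can grow with cells and reads as well as with cell types.

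Members were matched by symbol. Types, spans and exons came from GENCODE M21, whose GRCm38 assembly is the same as mm10; all 145 matched by identifier. Promoters came from RefSeq on GRCm38.p6; of several for a gene, the one nearest the annotated 5′ end was used. For a pair of lists, genes in 1 only were counted over the genes in either, and the same share over protein-coding genes and all genes is the background. With 1 library per group no test was run. Neighbours lie within 500 kb of each other.

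Members and lists were chosen with earlier results of these data known. The genes named are those that differ, those in no list, the beta-cell list and those covered in E15.5 WT; others serve as examples. Some genes that this rule would name are not reported here. Channel protein sequences were not used here. Scripts ran in Python 3.11.15.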

Additional observations from a re-analysis of the deposited data

How the results depend on the processing

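No paired analysis was possible because no group had more than 1 library. Of 45 values under another setting, 33 moved little and 12 moved by more than 1.5 times or beyond a binomial interval. Leaving out the Clcn genes moved none of the 7 values this far. Protein-coding members only and matching by identifier keep the same 145 genes, so these settings could not move a value. Their values are counted among the 33 and say nothing on how stable the results are. With pore-forming subunits only, 4 in place of 9 channel genes were at E13.5 only in KO, since 5 are auxiliary. With genes of no exon overlap, a setting chosen after the data were seen, 2 in place of 4 were in KO only at E13.5, 5 in place of 8 in WT only, and 1 in place of 2 at E15.5 only in KO. Over members in at least 1 list, the E13.5 WT share was 96.4% in place of 92.4%. Among identifiers that the E15.5 WT list covers, the 3 members were all listed (100%) in each complete list, and 0 differed in each of the 4 counts. With each setting but this last, WT held more channel genes alone than KO did at E13.5, and in KO the E13.5 list held more alone than the E15.5 list. Unknown depth limits every absence.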

Other observations

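Channel genes lie close together in many places. With gaps of at most 500 kb between them, 60 of the 145 fell into 25 groups, and 11 of the groups held genes with different listings over the complete lists. Since 26 of the 145 were missing from some list, mixed groups arise without any effect of position, and the count is a description only. On chromosome 3 (107036169 to 107459552) Kcna2 was in every list, Kcna3 in E13.5 KO alone, Kcnc4 in E13.5 WT alone and Kcna10 in none. On chromosome 2 (66270778 to 66784914) Scn9a and Scn7a were in every list and Scn1a, which lies beside them, in none. On chromosome 11 (107703218 to 107915055) Cacng4 and Cacng5 were in every list and Cacng1 was missing from E15.5 KO.

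Of 7 genes whose names begin like channel genes and fall outside the rule, 6 were in every complete list: the antisense genes Kcnab3os, Kcnd3os, Kcnmb4os2 and Kcnq1ot1, and the coding genes Kcne1l and Kcnrg. The antisense gene Kcnmb4os1 was in both E13.5 lists and not in E15.5 KO. Exons of Kcnmb4os1 and Kcnmb4os2 overlap those of Kcnmb4, which was in every list, and without knowledge of the strand used their reads cannot be told apart.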
